A study of Mus musculus with 8 samples.

Results

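NONMMUT064720, ENSMUST00000116835, NONMMUT047324 and NONMMUT071989 are 4 long noncoding RNAs (lncRNAs) whose probes gave a clear signal in the ileum of sham-operated mice and a far weaker one after duodenal–jejunal bypass (DJB). They are 4 of the 90752 transcript probes on the array, and 4 of the 64408 that were tested between the groups. They were selected on their array signal in these same 8 mice, from the lncRNAs with the largest decrease after DJB, so the direction and the size of the difference are given as a description and carry no test. The data are 8 one-colour Agilent arrays of ileal RNA, 1 array per mouse, from 4 DJB and 4 sham mice. All mice were male C57BL/6 that had been fed a high-fat diet from 6 weeks of age for 12 weeks, by when they were diabetic, and stayed on it after surgery. Tissue was taken 2 weeks after the operation, at about 20 weeks of age. In DJB the duodenum and the first part of the jejunum are cut out of the path of food, whereas the sham group had anaesthesia and an opened abdomen with the gut left in place. No unoperated mice were on these arrays, so anaesthesia and laparotomy are common to both groups.

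A lncRNA is a transcript that is not known to be translated into a protein. Many are weakly expressed and vary between tissues, and some act on transcription, on splicing or on the stability of other RNAs. A large share of catalogued lncRNAs has no known function, and some derive from copies of other genes, such as pseudogenes, so that a probe for one can resemble other transcripts. In the ileum bile acids are reclaimed from the gut content, and after DJB food and bile reach it by a changed route. No function is known here for any of the 4 transcripts. ENSMUST00000116835 belongs to the gene with the symbol Gm23493, a provisional name, and the other 3 carry only catalogue identifiers. NONMMUT064720 is annotated to chromosome 8, ENSMUST00000116835 to chromosome 16, NONMMUT047324 to chromosome 4 and NONMMUT071989 to chromosome X, so that no pair lies on the same chromosome.

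Each transcript was read by a single probe of 60 bases. The probe sequences are shown because everything that follows rests on what they bind, and they are printed 5′ to 3′. Capitals mark bases that are identical to the most similar other probe on the array, printed under each, in a local alignment without gaps. Bases outside that alignment are in lower case even where they are alike, as in part of the ENSMUST00000116835 probe.

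NONMMUT064720 (probe MOUSELNCRNA_61827): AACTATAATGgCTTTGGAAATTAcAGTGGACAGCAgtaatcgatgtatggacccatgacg
MOUSELNCRNA_38272: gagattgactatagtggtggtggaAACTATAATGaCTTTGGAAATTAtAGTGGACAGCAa
ENSMUST00000116835 (probe MOUSELNCRNA_55830): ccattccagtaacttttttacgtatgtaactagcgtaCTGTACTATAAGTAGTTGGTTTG
MOUSELNCRNA_18832: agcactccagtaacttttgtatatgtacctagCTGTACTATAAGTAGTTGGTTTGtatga
NONMMUT047324 (probe MOUSELNCRNA_89052): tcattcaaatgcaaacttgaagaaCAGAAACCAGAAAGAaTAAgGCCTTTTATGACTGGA
MOUSELNCRNA_50145: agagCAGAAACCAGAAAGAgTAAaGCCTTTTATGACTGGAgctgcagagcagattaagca
NONMMUT071989 (probe MOUSELNCRNA_86165): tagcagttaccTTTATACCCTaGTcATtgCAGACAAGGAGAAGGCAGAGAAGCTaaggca
MOUSELNCRNA_18905: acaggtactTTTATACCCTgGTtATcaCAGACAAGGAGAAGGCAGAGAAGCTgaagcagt

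All 4 probes therefore held a stretch found, nearly unchanged, in another probe. At NONMMUT064720, 33 of 35 aligned bases were identical, and at ENSMUST00000116835 all 23. At NONMMUT047324 the match covered 34 of 36 bases and at NONMMUT071989 39 of 43. ENSMUST00000116835 and NONMMUT071989 each had a further relative of this kind, with 22 of 23 and 39 of 45 bases identical. Unbroken stretches of at least 20 bases shared with another probe were found at ENSMUST00000116835 (23 bases) and NONMMUT071989 (25 bases), and over all transcript probes 20.6% had one. The longest unbroken shared stretch was 14 bases at NONMMUT064720 and 16 bases at NONMMUT047324. The deposited files do not pair the related probes with genes, so they are given by their identifiers. None of the 4 probes matched any of the 32851 RefSeq promoter sequences of the mouse assembly GRCm38.p6.

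In base composition the 4 were not alike. G and C made up 41.7% of the NONMMUT064720 probe, 35% of the ENSMUST00000116835 and NONMMUT047324 probes, and 45% of the NONMMUT071989 probe, where the median of all probes was 41.7%. Only 0.175% of probes had less than 35%, so the probes of ENSMUST00000116835 and NONMMUT047324 were at the low edge of the design. A share of 35% was nonetheless common, found in 15236 of the 64408 tested probes. Tested probes of the same composition had a median difference between DJB and sham of 0.08, 0.02 and 0.12 on the log2 scale at 41.7%, 35% and 45%, so none of these medians was below 0.

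The arrays were alike in the share of probes above background but not in brightness, which was lower on every DJB array. Between 71.5% and 74.6% of transcript probes were well above background on each, and the 75th percentile of the processed intensity was 413 to 440 on the sham arrays and 342 to 349 on the DJB arrays. To remove that offset, values are given as relative log2 signal, the log2 of the processed intensity minus the 75th percentile of the same array, so that 0 is the 75th percentile and a step of 1 is a doubling. The Pearson correlation across probes was 0.992 to 0.996 between arrays of 1 group and 0.981 to 0.988 between groups. Every sham array came from 1 slide and every DJB array from a different one, which means that the slide and the operation cannot be told apart in any comparison below. The labels give ileum as the tissue but name the duodenum in the extraction protocol, and because the probes carry no gene names, the tissue was not checked against its markers. The values come from pieces of whole tissue, in which fewer cells of a type and less RNA per cell cannot be told apart.

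NONMMUT064720 was measured in the sham mice and was not well above background in the DJB mice. Its relative log2 signal was -2.51, -2.28, -2.49 and -2.34 in sham mice 1 to 4, and -6.94, -7.12, -7.29 and -7.31 in DJB mice 1 to 4. Every DJB mouse lay below every sham mouse, and with the DJB values raised to the dimmest probe still above background the nearest mice were 3.52 apart. In processed intensity the sham mice lay between 72.7 and 87.7 and the DJB mice between 2.19 and 2.85. The probe was well above background in all sham mice and in none of the DJB mice, so its DJB level is an upper limit, not a value. Against the dimmest probe still above background on each DJB array, the signal was at least 13.5-fold lower in the DJB group, and at most 7.40% of the sham signal remained. By this bound its place among the tested probes is not settled. The mean of the processed values was -2.40 ± 0.11 (SD, n = 4) for the sham mice and -7.16 ± 0.17 (SD, n = 4) for the DJB mice. In DJB mice 2 to 4 the processed intensity was 2.48, 2.19 and 2.19. This was nearer the error that the scanner software assigns to the spot (2.56, 2.31 and 2.24) than the background-subtracted signal (1.32, 0.718 and 1.90). The DJB mean and SD are therefore not measurements of this transcript. The bound differed between ways of making the values. It was 6.44-fold in the authors' log2 table. After normexp correction of the raw intensities it was 2.01-fold. There the DJB values of the probe exceeded the dimmest signal above background, so this figure is the ratio of the means of the corrected values. These values hold an added offset of 50, and the probe was still not well above background in the DJB mice.

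ENSMUST00000116835, from Gm23493, was the most variable of the 4. In the sham mice its relative log2 signal was 0.21, 0.36, -0.15 and 0.21. In the DJB mice it was -3.91, -3.21, -3.92 and -4.21. DJB mouse 2 was thus the brightest of its group and DJB mouse 4 the dimmest, yet the nearest mice of the groups were separated by 3.06. The means were 0.16 ± 0.22 (SD, n = 4) and -3.81 ± 0.43 (SD, n = 4). The difference of -3.97 is a 15.7-fold lower signal, and 6.37% of the sham signal remained. In order of difference it stood at place 4 among all tested probes.

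NONMMUT047324 ran from -1.05 to -0.65 in the sham mice, with -0.94, -1.05, -0.94 and -0.65 in mice 1 to 4. In the DJB mice it was -4.51, -4.50, -4.19 and -4.51. Sham mouse 4 and DJB mouse 3 were the brightest of their groups. In the mean of both spots the other mice were nearly level within groups. Its mean was -0.90 ± 0.17 (SD, n = 4) for the sham mice and -4.43 ± 0.16 (SD, n = 4) for the DJB mice, which differ by -3.53 or an 11.5-fold lower signal. Of the sham signal 8.66% remained, and the place in order of difference was 12.

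NONMMUT071989 was the steadiest of the 4 in the sham group. Its relative log2 signal there was 0.73, 0.76, 0.68 and 0.75, a mean of 0.73 ± 0.04 (SD, n = 4). In the DJB group it was -2.79, -2.39, -2.57 and -2.84, a mean of -2.65 ± 0.21 (SD, n = 4). The values of the mice thus spread more after DJB than after the sham operation. The 2 spots of a mouse also differed more, by a median of 0.17 against 0.03, and spread between mice was not separated from spread between spots. The difference of -3.38 is a 10.4-fold lower signal at place 13, with 9.61% remaining.

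**Figure D1:**
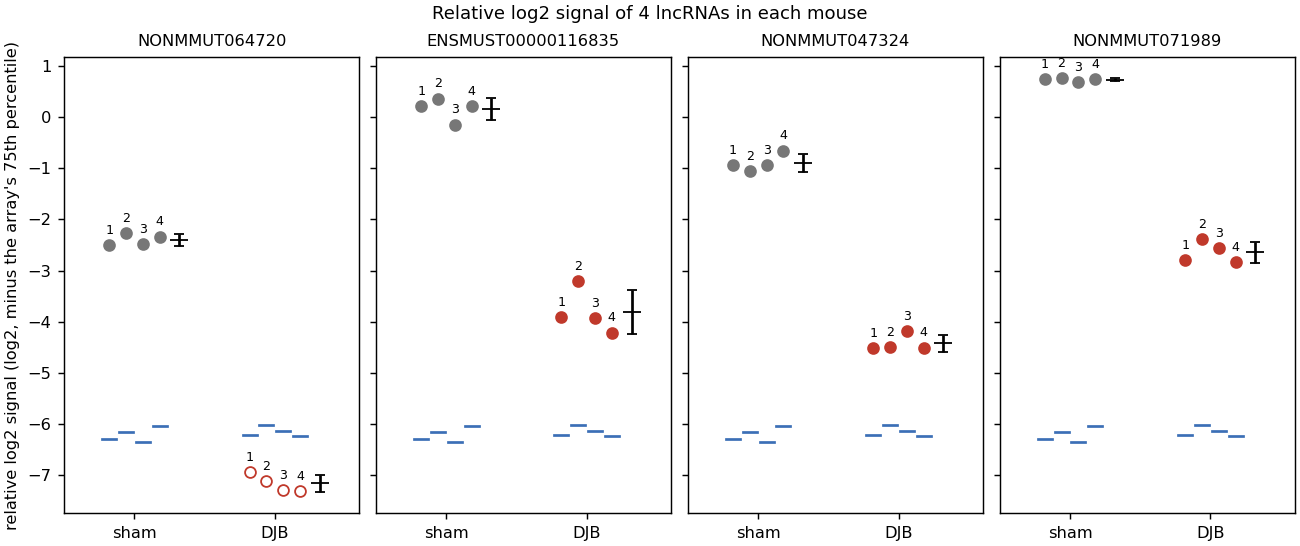
Relative log2 signal (y axis, log2, 0 = 75th percentile of the array) of the 4 lncRNAs in each mouse of the sham (grey) and DJB (red) groups, with mouse numbers above the points. Black bars are the mean ± SD of 4 mice, blue ticks the dimmest probe still well above background on that array, and open points values not well above background. The groups lie at least 3.06 apart for every lncRNA, and the open DJB points of NONMMUT064720 sit below the ticks.

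None of the 4 had a DJB mouse within the range of the sham mice. Over all tested probes, 14.8% had all DJB mice below all sham mice, and the 4 were chosen for exactly this pattern. All 4 were also among the 1482 probes (2.3 percent of those tested) that limma called lower in the DJB mice, with the thresholds set at 2-fold and at an adjusted p (Benjamini-Hochberg) under 0.05. This is the contrast that picked them, and in either direction 3.59 percent of probes were called. NONMMUT064720 entered the test only through the sham group, while the other 3 were well above background on all 8 arrays. In the processed values the signal was at least 10-fold lower for 14 probes (0.0217 percent), among them the 4. The median difference over all tested probes was 0.08, slightly toward DJB.

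How much signal remained after DJB was read from the spots themselves. At NONMMUT064720 the raw spot signal in the DJB mice was 1.03 to 1.11 times the background that was subtracted, against 3.72 to 4.19 times in the sham mice. After subtraction 0.718 to 2.91 intensity units were left, which was 0.311 to 1.27 times the error that the scanner software assigns to the spot. Only in DJB mouse 1 did that software mark the spot as positive. In DJB mice 2 and 3, 11 of 564 and 23 of 570 negative control spots, which carry no matching sequence, were at least as bright, and in DJB mice 1 and 4 none were. The remaining signal of this lncRNA thus lay within the upper range of the negative controls in 2 of the 4 DJB mice and just above it in the other 2.

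The other 3 lncRNAs kept a measurable signal. NONMMUT071989 stood furthest above background, at 2.86 to 4.17 times background in the DJB group (25.9 to 29.1 in the sham group) and 9.10 to 9.60 times the spot error. ENSMUST00000116835 was at 1.64 to 2.45 times background (14.4 to 22.2 in the sham group) and 5.89 to 8.49 times the error. NONMMUT047324 was the closest to background of these, at 1.46 to 1.88 times (8.10 to 10.3 in the sham group) and 4.60 to 7.09 times the error. For these 3, each of the 8 DJB spots was well above background, and no negative control spot on any DJB array was as bright. Their signal was lower after DJB but still above background in every mouse. No spot of the 4 probes was saturated or marked as an outlier on any array.

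**Figure D2:**
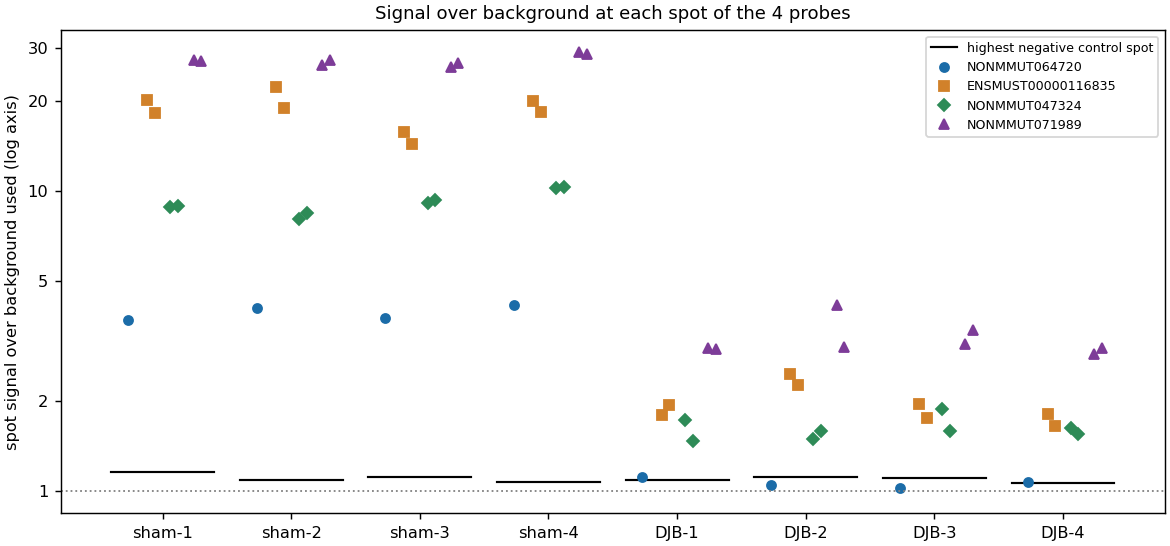
Raw spot signal divided by the background used for subtraction (y axis, log axis, no unit) for every spot of the 4 probes on each array, with the dotted line at 1 and the black line at the highest negative control spot of the array. NONMMUT064720 is at 1.03 to 1.11 in the DJB mice, beside the negative controls, whereas the other 3 stay above every negative control.

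NONMMUT064720 was printed at 1 place on the array and the other 3 at 2 places. Where there were 2 spots, both showed the lower signal. The differences were -4.01 and -3.94 at ENSMUST00000116835, -3.35 and -3.70 at NONMMUT047324 and -3.33 and -3.43 at NONMMUT071989. In the sham group the 2 spots of a mouse differed by a median of 0.08, 0.23 and 0.03 on the log2 scale in the same order, and in the DJB group by 0.20, 0.48 and 0.17. The spots agreed less closely where the signal was low. Among the 77 to 79 transcript spots within 4 rows and columns of each of these spots, the median difference was between -0.03 and 0.10, so neighbouring spots did not share the lower signal.

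The spread between mice was set beside that of the 200 tested probes nearest in signal in the same group. ENSMUST00000116835 was more variable than most of them in both groups, with an SD of 0.22 against a median of 0.09 in the sham group and 0.43 against 0.21 in the DJB group. Of the probes of like signal, 90.5% and 92.5% had a smaller SD. NONMMUT071989 in the sham group was at the other end, with an SD of 0.04 against 0.11, and only 5% of like probes were steadier. After DJB its SD of 0.21 was above the median of 0.16. NONMMUT047324 was above the median in the sham group (0.17 against 0.10) and below it in the DJB group (0.16 against 0.24). In the DJB group its 2 spots differed within a mouse by a median of 0.48, more than this SD. That SD is of the mean of both spots and does not show a small spread between mice. For NONMMUT064720 the SD was 0.11 against 0.15 in the sham group and 0.17 against 0.43 in the DJB group. Its DJB values were not well above background and lay near the spot error in mice 2 to 4. The SD there is thus no measure of the spread between mice.

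Within groups the 4 lncRNAs did not rank the mice alike. Sham mouse 2 was the highest at NONMMUT064720, ENSMUST00000116835 and NONMMUT071989 and the lowest at NONMMUT047324. Sham mouse 3 was the lowest at ENSMUST00000116835 and NONMMUT071989. In the DJB group mouse 2 was the highest at ENSMUST00000116835 (0.60 above the group mean) and at NONMMUT071989 (0.26 above), but 0.07 below the mean at NONMMUT047324. DJB mouse 4 was the lowest at ENSMUST00000116835 and NONMMUT071989. The DJB values of NONMMUT064720 were not well above background and give no order of mice. In the mean of their spots, ENSMUST00000116835 and NONMMUT071989 thus had the same highest and the same lowest mouse in both groups, and NONMMUT047324 departed from them. Single spots did not all give this order. At spot 2 of NONMMUT071989, DJB mouse 3 was the highest (-2.47) and DJB mouse 1 the lowest (-2.80). At its spot 1, sham mouse 4 (0.744) was just above sham mouse 2 (0.735). At spot 1 of ENSMUST00000116835, DJB mouse 1 was the lowest (-4.15). With 4 mice a group and the groups forming separate clusters, no correlation between the lncRNAs across mice was computed.

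**Figure D3:**
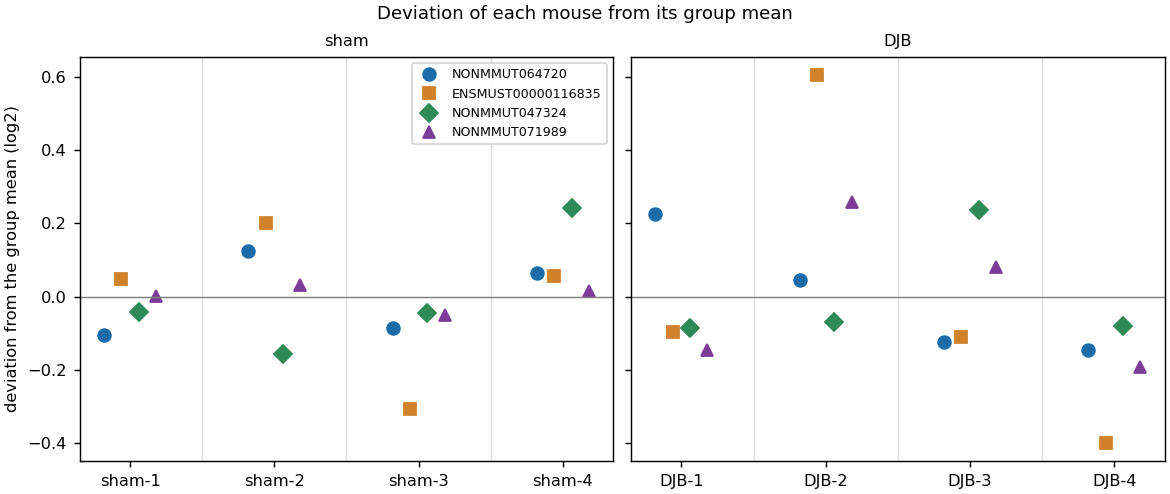
Deviation of each mouse from the mean of its group (y axis, log2) at the 4 lncRNAs, sham mice on the left and DJB mice on the right. ENSMUST00000116835 and NONMMUT071989 have their highest point in mouse 2 of each group, where NONMMUT047324 lies below the mean. The DJB points of NONMMUT064720 are not well above background.

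The likeness of whole patterns was measured by the root mean square difference over the 8 arrays, each probe centred on its own mean, so that 0 is an identical pattern. Between the 4 lncRNAs it was smallest for NONMMUT047324 and NONMMUT071989, at 0.19. For NONMMUT064720 the measure uses DJB values that were not well above background, so its distances, 0.47 to 0.71 from the other 3, describe the processed values only. Among 64371 probes with values on all arrays, the pattern nearest to NONMMUT064720 was that of the probe assigned to Nlrp9a, a member of the NLR family of innate immune receptors, at 0.27. That probe fell from -3.00 ± 0.13 (SD, n = 4) to -7.29 ± 0.11 (SD, n = 4), and like NONMMUT064720 it was not well above background in any DJB mouse. The next nearest, ENSMUST00000116835 itself and NONMMUT030361, were further away at 0.47 and 0.50.

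ENSMUST00000116835 was followed most closely by the lncRNAs NONMMUT009936 at 0.14, NONMMUT046523 at 0.20 and NONMMUT030361 at 0.21. Of these, NONMMUT046523 was not well above background in any DJB mouse, so its likeness also rests on such dim values. NONMMUT047324 was followed by NONMMUT009001 at 0.16, MOUSELNCRNA_47803 at 0.19 and NONMMUT071989 at 0.19. NONMMUT071989 had the closest partner of all, NONMMUT070885 at 0.08. The latter went from 0.71 ± 0.05 (SD, n = 4) in sham mice to -2.56 ± 0.29 (SD, n = 4) in DJB mice. MOUSELNCRNA_30076 at 0.12 and MOUSELNCRNA_56704 at 0.13 came next. All these partners had differences between -4.29 and -3.18, since the measure is governed by the size of the step between the groups.

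The related probes printed beside the 4 sequences behaved otherwise. MOUSELNCRNA_38272 resembles the probe of NONMMUT064720 and had a mean of 2.89 ± 0.19 (SD, n = 4) in sham mice and 2.75 ± 0.23 (SD, n = 4) in DJB mice. MOUSELNCRNA_18832, the relative of ENSMUST00000116835, was 5.35 ± 0.16 (SD, n = 4) and 5.21 ± 0.20 (SD, n = 4), and its other relative MOUSELNCRNA_27894 was 5.37 ± 0.15 (SD, n = 4) and 5.26 ± 0.21 (SD, n = 4). MOUSELNCRNA_50145, the relative of NONMMUT047324, was 7.31 ± 0.06 (SD, n = 4) and 7.26 ± 0.10 (SD, n = 4). At these relatives the groups overlapped and the differences were between -0.14 and -0.05, with limma adjusted p of 0.375 to 0.625 over all tested probes. With no scaling they were -0.43 to -0.34 and with scaling to the spike-in probes -0.52 to -0.42, where the median of all tested probes was -0.21 and -0.30.

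The relatives of NONMMUT071989 were higher in every DJB mouse than in every sham mouse. MOUSELNCRNA_18905 went from 6.72 ± 0.07 (SD, n = 4) to 6.83 ± 0.01 (SD, n = 4) and MOUSELNCRNA_21901 from 7.30 ± 0.08 (SD, n = 4) to 7.52 ± 0.04 (SD, n = 4). Of these only MOUSELNCRNA_21901 had a limma adjusted p under 0.05 (0.0251, against 0.162 at MOUSELNCRNA_18905). The differences of 0.12 and 0.22 turned to -0.18 and -0.07 with no scaling between arrays and to -0.26 and -0.16 with scaling to the spike-in probes, so their direction depends on the scaling. Over all tested probes 22.1 percent had all DJB mice above all sham mice. All 6 relatives were well above background on all 8 arrays, and none fell by as much as 2-fold.

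Signals of different probes do not compare amounts of RNA, because probes bind with unequal strength. As a description of the spots alone, the brightest relative exceeded the lncRNA probe on the sham arrays 39.2-fold at NONMMUT064720, 37.0-fold at ENSMUST00000116835, 296-fold at NONMMUT047324 and 95-fold at NONMMUT071989. Whether RNA bound by the relatives added to the signal of the lncRNA probes was not tested. At ENSMUST00000116835 the brightest mouse of each group was also the brightest at both relatives, with 5.58 in sham mouse 2 and 5.49 in DJB mouse 2 at MOUSELNCRNA_18832. At NONMMUT064720, sham mouse 2 was the brightest at the lncRNA probe and at its relative (3.16). With so few mice per group such matches can arise by chance. Both relatives of ENSMUST00000116835 also ranked the mice alike, so they are not separate observations. At NONMMUT047324 the mice did not match in this way, and at NONMMUT071989 they matched in the sham group only. NONMMUT047324 was brightest in sham mouse 4 and DJB mouse 3, and MOUSELNCRNA_50145 in sham mouse 3 (7.39) and DJB mouse 4 (7.35). NONMMUT071989 and both its relatives were brightest in sham mouse 2, but in the DJB group the lncRNA probe was brightest in mouse 2, MOUSELNCRNA_18905 in mouse 1 (6.84) and MOUSELNCRNA_21901 in mouse 4 (7.58).

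**Figure D4:**
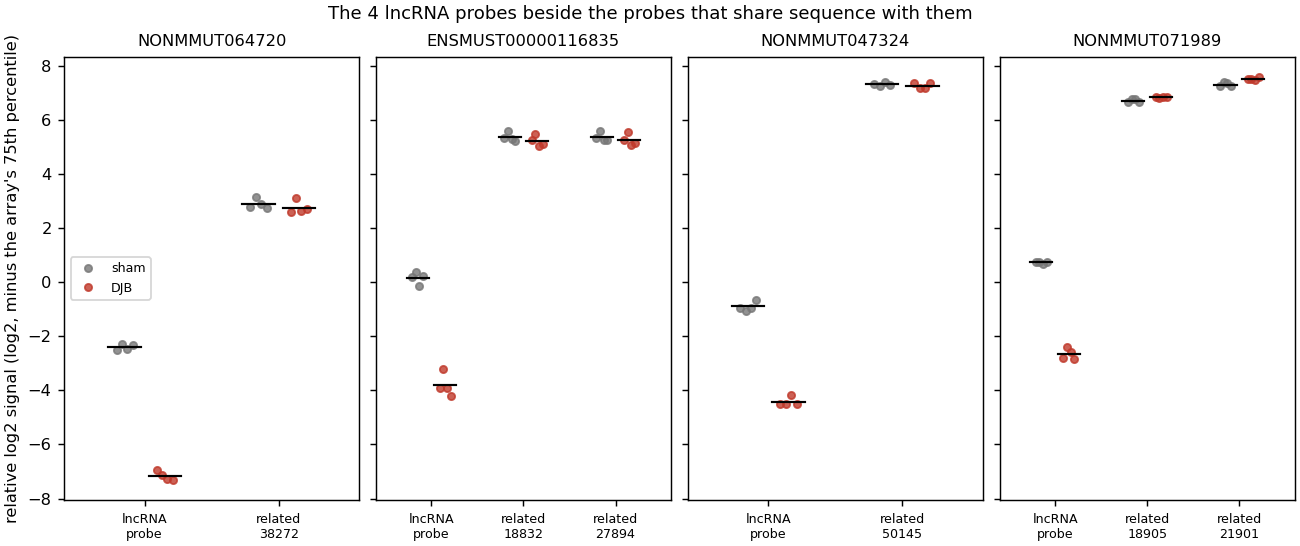
Relative log2 signal (y axis, log2, 0 = 75th percentile of the array) of each lncRNA probe and of the probes that share sequence with it, in sham (grey) and DJB (red) mice, with a black line at the mean of 4 mice. The lncRNA probes differ between the groups by -4.76 to -3.38, the 6 related probes by -0.14 to 0.22 under this scaling.

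Probes elsewhere on the array were then grouped in the same way, a description chosen after the 4 had been looked at. Of the tested probes, 2531 besides the 4 had a relative in the sequence search that was at least 16-fold brighter in the sham group. Their median difference was -0.44, and 435 (17.2 percent) were lower in the DJB group at both thresholds while 11 (0.435 percent) were higher. In 58.2 percent of them all DJB mice lay below all sham mice, against 14.8 percent of all tested probes and 10.1 percent of those with no relative. Among the 48159 tested probes with no relative, 1.4 percent were lower, 1.41 percent were higher and the median was 0.11.

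All 4 lncRNA probes had a relative of this kind. Their own differences, -4.76 to -3.38, cannot be weighed against that median, because the 4 were selected for a large decrease. The shift of the other probes with such a relative was seen in every DJB mouse. Their medians against the sham mean were -0.49, -0.45, -0.39 and -0.47 in DJB mice 1 to 4, and -0.03 to 0.03 in the sham mice. With a relative at least 4-fold brighter the share lower was 13.3 percent of 4719 probes, and with one at least 64-fold brighter 14.5 percent of 1338. Of all 1482 probes that were lower at both thresholds, 29.6% had a relative at least 16-fold brighter, against 3.94% of all tested probes. Many of these probes resemble one another, so they are not independent observations. The operation and the slide cannot be told apart here either, and the part of the relatives in the lower signals was not tested.

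**Figure D5:**
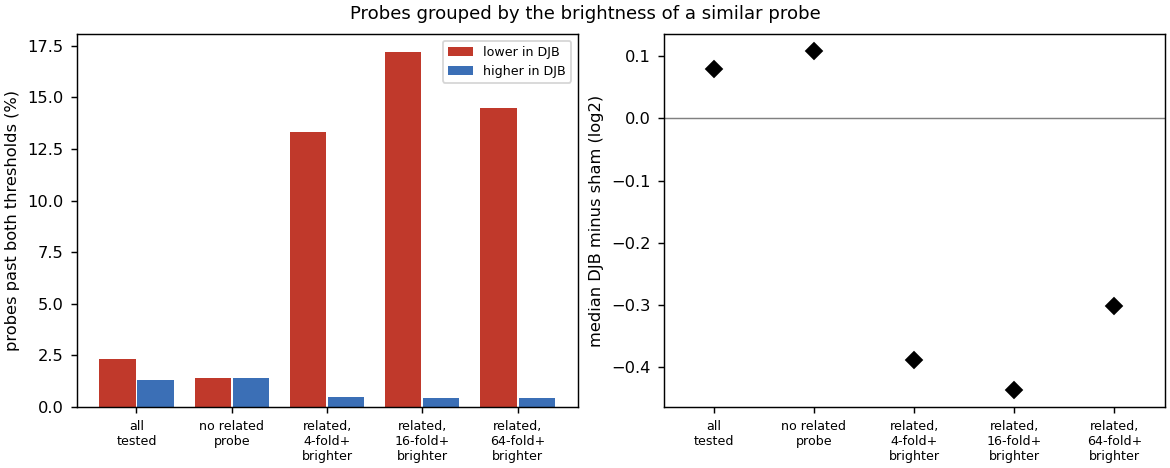
Left, the share of probes (y axis, percent) lower (red) or higher (blue) in the DJB group at both thresholds, for all tested probes, those with no similar probe, and those with one at least 4-, 16- or 64-fold brighter in the sham group. Right, the median DJB minus sham difference (y axis, log2) of the same sets, which is 0.11 without a similar probe and -0.44 with one at least 16-fold brighter.

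NONMMUT064720, NONMMUT047324 and NONMMUT071989 were also followed by qRT-PCR in the study, in the samples of the arrays and in a separate cohort of mice. Those measurements were not analysed here, so the values above rest on the arrays alone.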

How the data were processed

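The deposited scanner files hold, per spot, raw and background-subtracted intensity and flags, which the authors extracted with Agilent Feature Extraction (12.0.3.1 in the file headers, 11.0.1.1 in the submitters' processing notes). The authors' deposited table holds log2 values, 1 per probe and array, with nearly equal quartiles per array, and how it was made is not given in the sources used here. It has 0 columns of other samples. Probes carry no names in the files. The 4 identifiers, and 36 others, were matched to probes through the ratio of group means of the authors' values, taken out of log2. The size of a difference is therefore no independent evidence. The members, lists and comparisons were chosen with earlier results of these data known.

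Spots marked non-uniform or population outliers were dropped, log2 processed intensity was averaged per probe, and the 75th percentile of each array was subtracted. A probe counted as well above background where at least 1 spot was. Probes that were so on all 4 arrays of either group, 64408 in all, entered limma (version 3.58.1 under R 4.3.3; lmFit, eBayes), which compared DJB with sham without covariates. Calls needed both a 2-fold change and an adjusted p (Benjamini-Hochberg) under 0.05. On simulated data over 64408 probes, 92% of probes changed by 1.5 and 95% of those changed by 2 on the log2 scale were recovered. Of the unchanged probes, 3 were called. The simulated noise was independent between probes, with no slide effect and no detection limit, so these shares do not cover errors from those sources. Lower bounds on the fold used, per DJB array, the dimmest probe still well above background. The number of arrays limits the precision.

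The names in the text follow a rule: the 4 lncRNAs, probes sharing at least 20 bases with one, and the 3 nearest patterns of each. Only MOUSELNCRNA_18832 and 1 probe at NONMMUT071989 met the 20-base rule. The other relatives came from a search with BLAST 2.17.0 (word size 11, e-value of at most 0.001), added after the data were seen. Other scalings, background corrections, filters, a replicate block and leaving out each mouse were tried as alternatives. Same-numbered mice shared only a number. Pathway and cell type lists were not used, because probes could not be named.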

Additional observations from a re-analysis of the deposited data

Results flagged for a closer look

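NONMMUT047324 in the DJB group had 1 mouse far from the rest, DJB mouse 3 at -4.19 where the other 3 lay between -4.51 and -4.50. The gap took up 0.95 of the range of the group. At the first spot DJB mouse 3 was the highest, at -3.95 against -4.77 to -4.27, while at the second spot DJB mouse 2 was the highest, at -4.23, and DJB mouse 3 was at -4.42. The 2 spots of this probe therefore did not single out the same mouse, and the other 3 mice come close together only in the mean of both spots. It was the only one picked out of 26 groups of 4 mice examined, and chance gives 1.3. The difference between the groups was -3.53 with all mice and -3.61 without DJB mouse 3, the most negative of the values from leaving out 1 mouse, the highest of which was -3.45.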

How the results depend on the processing

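The lower signal after DJB kept its direction at all 4 lncRNAs under the 7 other scalings, corrections and tables run and without any 1 mouse. The authors' table was used to match the probes, so the direction there was fixed. No DJB mouse lay within the range of the sham mice, so leaving out 1 mouse could not change the direction either. The filters, t-tests and blocks were run for the number of probes called only. Normexp background correction shrank the difference most, to -1.01 at NONMMUT064720, -2.42 at ENSMUST00000116835, -1.66 at NONMMUT047324 and -2.51 at NONMMUT071989. There the bound of 2.01-fold at NONMMUT064720 was the ratio of the means of the corrected values. This correction adds an offset of 50 to every signal. With no scaling the differences were -5.05 at NONMMUT064720 (bound 16.5-fold), -4.26 at ENSMUST00000116835, -3.82 at NONMMUT047324 and -3.67 at NONMMUT071989. With scaling to the spike-in probes they were -5.14, -4.35, -3.91 and -3.76 in the same order, with a bound of 17.5-fold at NONMMUT064720. These scalings moved the median of all tested probes to -0.21 and -0.30. The bound was 6.44-fold in the authors' log2 table. At NONMMUT047324, spot 1 alone gave -3.35 and spot 2 alone -3.70, and NONMMUT064720 had no second spot. Leaving out 1 mouse gave -4.84 to -4.71 at NONMMUT064720 (bound 13.1- to 13.9-fold), -4.17 to -3.84 at ENSMUST00000116835, -3.61 to -3.45 at NONMMUT047324 and -3.46 to -3.31 at NONMMUT071989. Probes past both thresholds numbered 2312 (64.1% lower), 3654 with no scaling (89.1% lower), 4446 with spike-in scaling (92.6% lower), 1034 after normexp and 2173 to 2610 without 1 mouse. With the replicate number as a block there were 2314, and same-numbered mice did not deviate together (correlations of -0.02 to 0.01). The median of probes with a relative at least 16-fold brighter was -0.19 after normexp and -0.81 with spike-in scaling. Signal over background limits NONMMUT064720 in the DJB group, where only a bound is given.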
